A study of Mus musculus with 8 samples.

Results

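The genes described here are the extracellular and membrane parts of the mouse Wnt pathway together with its direct antagonists, 46 of the 22367 protein-coding genes placed on the genome. They were chosen by name, as 19 Wnt ligands, 10 Frizzled receptors, the 2 co-receptors Lrp5 and Lrp6, 5 secreted Frizzled-related proteins, 4 Dickkopf proteins, 4 R-spondins and the intracellular inhibitors Axin1 and Axin2. All 46 were found in the annotation, on 16 chromosomes. They are not fully independent places in the genome, since 4 pairs of ligands lie within 100 kb of each other (Wnt3a and Wnt9a, Wnt6 and Wnt10a, Wnt9b and Wnt3, Wnt10b and Wnt1, with gaps of 16.2, 6.20, 24.3 and 11.7 kb).

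LaminB1-DamID was used on 3T3-L1 cells, an established mouse fibroblast line that turns into fat cells in culture. In DamID a bacterial adenine methylase, Dam, is fused to a protein of interest and methylates nearby GATC sequences. LaminB1 lies under the nuclear envelope, so a stretch methylated more by LaminB1-Dam than by free Dam is read as a lamina associated domain (LAD), that is, DNA at the nuclear periphery. The 4 conditions were untreated preadipocytes (day 0), adipocytes at day 9 after hormonal induction that carried a non-target control shRNA, day 9 adipocytes that carried an shRNA against Tmem120a (the single knockdown), and day 9 adipocytes with shRNA against both Tmem120a and its paralog Tmem120b (the double knockdown). Tmem120a encodes a nuclear envelope membrane protein found preferentially in fat. All cells received Dam or LaminB1-Dam by lentivirus. The preadipocytes were labelled untreated and the adipocytes non-target shRNA. By the paper's results, preadipocyte DNA was also taken after fewer days of transduction, before the cells were confluent. Differentiation, shRNA vector, transduction time and confluency thus cannot be told apart in that comparison. The knockdowns were compared with the control adipocytes and cannot be checked here, because the LAD lists hold no transcript level. The fat cells are made in a dish from 1 line, and the share of cells that differentiated cannot be read from the lists.

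A single pair of libraries, LaminB1-Dam and Dam, stands behind each list (8 libraries in all). There is thus no replicate spread to set a difference against, no test was possible, and the depth is unknown, since the lists give positions only. Differences between lists are therefore described for these libraries. LADs covered between 1161.4 and 1197.9 Mb in the 4 lists, but the adipocyte list held 2542 LADs (median 103.1 kb) while the knockdown lists held 5723 (median 59.1 kb) and 6971 (median 60.7 kb). The part that this finer splitting has in the values of single genes was not tested.

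Wnt proteins are secreted, lipid-modified signals. They bind a Frizzled receptor together with Lrp5 or Lrp6, and the signal stops the Axin complex from destroying beta-catenin, which then switches on target genes with Tcf and Lef factors. Secreted Frizzled-related proteins capture Wnts, Dickkopf proteins block the co-receptors, and R-spondins strengthen the signal by keeping receptors on the membrane. In fat tissue the pathway is known as a brake on adipogenesis, with Wnt10b the classical preadipocyte ligand, and it must be turned down for fat cells to form.

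DamID reads the genome in GATC fragments, and the authors segmented the fragment values into LADs. A start site counted as in a LAD when it lay inside a listed LAD. Neither the bases before the start nor the length of its fragment entered that call. The sequences before 5 start sites that changed state between lists are shown as a description of these places. They are the 250 bases before the annotated start, 5′ to 3′ on the gene's own strand, in mouse build mm9 (NCBIM37), with each GATC in capitals. Dkk1 (chr19:30624156-30624405, minus strand), Axin2 (chr11:108781413-108781662, plus strand) and Rspo4 (chr2:151668413-151668662, plus strand) had their start in a LAD in preadipocytes and not in adipocytes. Fzd10 (chr5:129106469-129106718, plus strand) had its start in a LAD in both of these and in neither knockdown. Sfrp1 (chr8:24521724-24521973, plus strand) had its start outside LADs in the single knockdown alone.
Dkk1: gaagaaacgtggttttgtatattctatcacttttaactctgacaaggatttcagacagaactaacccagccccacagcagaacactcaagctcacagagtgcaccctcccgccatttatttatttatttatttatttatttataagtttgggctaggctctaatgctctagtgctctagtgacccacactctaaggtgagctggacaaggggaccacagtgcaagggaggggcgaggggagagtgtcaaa
Axin2: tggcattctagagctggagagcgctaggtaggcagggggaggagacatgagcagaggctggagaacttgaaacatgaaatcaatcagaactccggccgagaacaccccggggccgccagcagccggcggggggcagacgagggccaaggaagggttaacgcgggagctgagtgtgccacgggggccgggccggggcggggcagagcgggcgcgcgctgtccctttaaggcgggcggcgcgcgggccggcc
Rspo4: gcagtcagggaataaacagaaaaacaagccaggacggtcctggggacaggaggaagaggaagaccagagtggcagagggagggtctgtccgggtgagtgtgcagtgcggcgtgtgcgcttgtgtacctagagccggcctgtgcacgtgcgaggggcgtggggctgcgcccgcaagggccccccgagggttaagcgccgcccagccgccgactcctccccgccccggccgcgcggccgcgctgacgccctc
Fzd10: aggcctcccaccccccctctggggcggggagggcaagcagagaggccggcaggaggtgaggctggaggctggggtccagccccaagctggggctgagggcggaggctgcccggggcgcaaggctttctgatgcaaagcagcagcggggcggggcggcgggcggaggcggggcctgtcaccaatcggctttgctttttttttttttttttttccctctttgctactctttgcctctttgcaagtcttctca
Sfrp1: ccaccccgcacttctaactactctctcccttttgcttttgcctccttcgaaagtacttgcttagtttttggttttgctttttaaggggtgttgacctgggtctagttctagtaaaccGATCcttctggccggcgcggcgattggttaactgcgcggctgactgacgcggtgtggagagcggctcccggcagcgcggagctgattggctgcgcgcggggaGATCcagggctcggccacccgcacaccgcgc

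Of these 5 stretches 4 held no GATC, and that of Sfrp1 held 2. Among the 46 genes, 13 (28.3%) had a GATC in the 250 bases before the start, against 40.2% of all protein-coding genes. Of the 9 genes whose start site changed state between any lists, 1 did (11.1%), and that was Sfrp1. The start sites of the 5 genes lay on GATC fragments of 1145 bp for Dkk1, 412 bp for Axin2, 1813 bp for Rspo4, 1154 bp for Fzd10 and 172 bp for Sfrp1. The median start fragment was 0.815 kb for the 46 genes and 0.723 kb for all genes.

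The first question was how many of these genes lay at the periphery. A gene was counted when any base of its body, from the first to the last annotated base, met a LAD. The count was 11 of 46 (23.9%) in preadipocytes and 5 (10.9%) in adipocytes, while the single knockdown had 5 (10.9%) and the double knockdown 7 (15.2%). Of all protein-coding genes 26.2%, 23.3%, 27.5% and 29.5% met a LAD in the same lists. Counted by any overlap, the Wnt genes were thus near the genome-wide share in preadipocytes and below it in the other 3 lists. The counts depended on the setting, and shares of all genes were computed for the any-overlap and start site counts only. With at least 50% of the body required, the preadipocyte count was 7. With LADs of at least 100 kb only, the body counts were 5, 4, 0 and 1. By start site alone, which does not depend on gene length, the counts were 8, 5, 2 and 3 of 46 (17.4%, 10.9%, 4.35% and 6.52%), against 23.3%, 21.2%, 22.6% and 23.8% of all genes. With a LAD within 10 kb of the start accepted, the start counts in the single and double knockdown were 4 and 7. In all, 12 of 46 genes (26.1%) met a LAD in at least 1 list, where 36.3% of all genes did, and 34 met none. The 4 that met a LAD in every list, Wnt2, Sfrp1, Frzb and Rspo3, made up 8.70% of the genes, against 19.3% genome-wide.

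**Figure D1:**
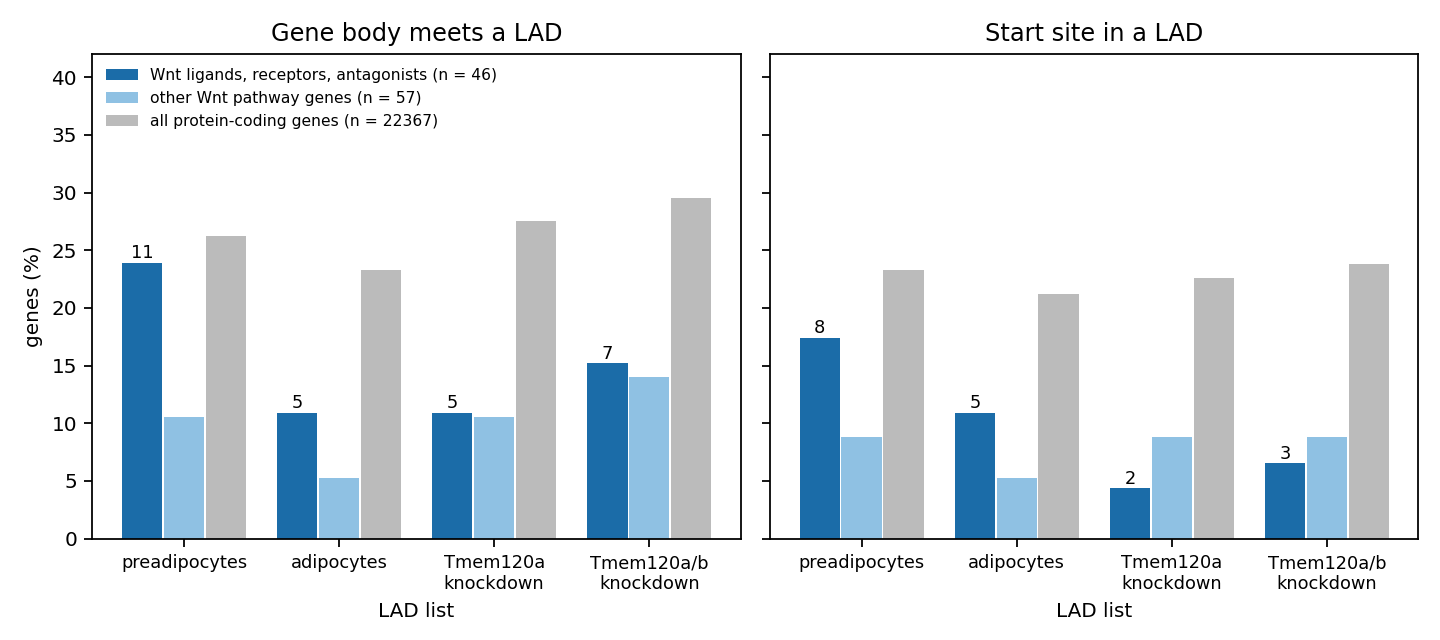
Share of genes (%) whose body meets a LAD (left) or whose start site lies in one (right) in each of the 4 LAD lists, for the 46 Wnt ligands, receptors and antagonists, 57 other Wnt pathway genes and all 22367 protein-coding genes. Numbers over the bars count the Wnt genes. They run 11, 5, 5 and 7 by body and 8, 5, 2 and 3 by start site, while the bars for all genes stay between 21.2% and 29.5%.

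Between preadipocytes and adipocytes 6 genes left LADs, Wnt3, Dkk1, Dkk2, Axin2, Rspo2 and Rspo4. None entered. These counts depended on the setting, with 2 leaving when at least 50% of the body was required, and 3 leaving and 2 entering with LADs of at least 100 kb only. Shares of all genes were not computed for these alternatives. The 6 genes are 13.0% of the 46, against 4.81% of all genes leaving, while 1.88% of all genes entered. These are 2 Dickkopf antagonists, 2 R-spondins, the intracellular inhibitor Axin2 and the ligand Wnt3. The same 6 met a released region, the study's own set of regions in LADs of preadipocytes alone (5.76% of all genes did). These regions come from the same 2 conditions, so the match is not separate evidence. Wnt2 was the only one of the 46 genes to meet a recruited region, in LADs of adipocytes alone (3.08% of all genes). With at least 50% of the body required, 2 genes met a released region and 0 a recruited one. By start site these counts were 3 and 0, and here too shares of all genes were not computed. Counted by start site, 3 genes left, Dkk1, Axin2 and Rspo4, or 6.52% against 3.94% of all genes. The other 3 left with a part of the body between 5.81% and 33.3%.

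**Figure D2:**
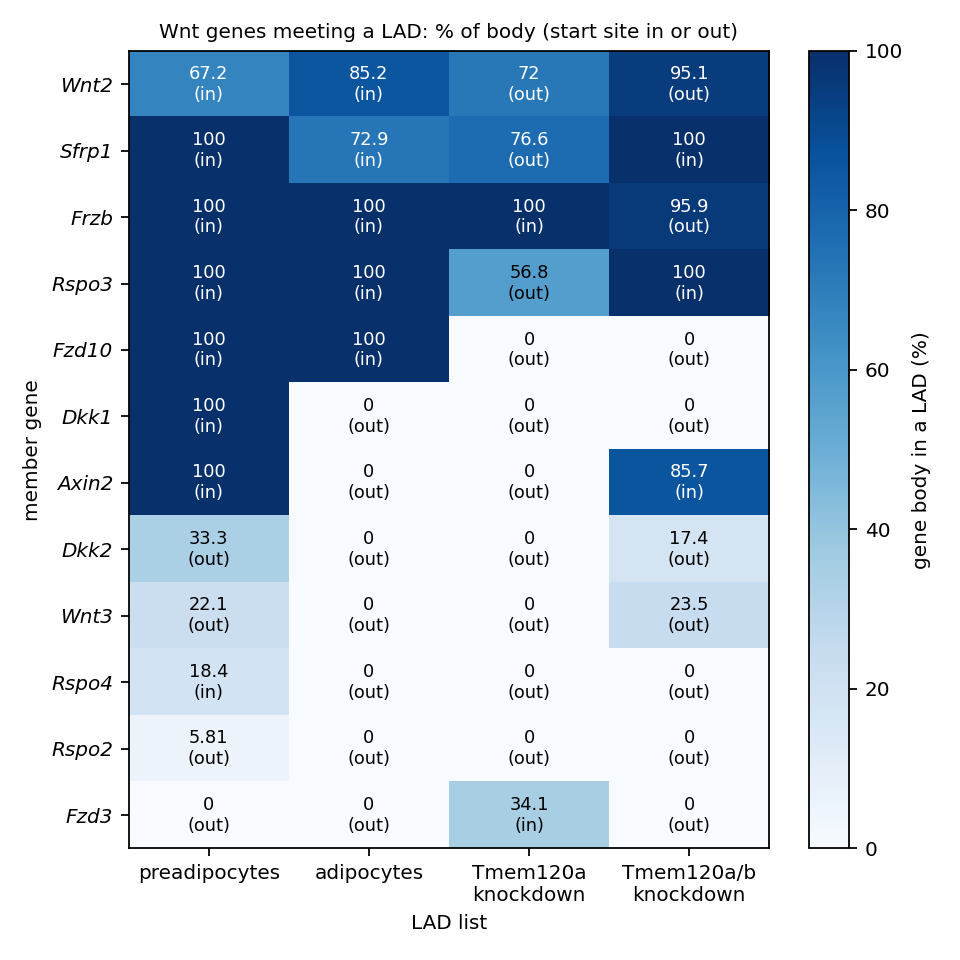
Percent of the gene body in a LAD, by colour and number, for the 12 Wnt genes that meet a LAD in at least 1 list, in rows, against the 4 lists, in columns. The words in brackets tell whether the start site is in or out of a LAD. The upper 4 genes are in LADs in every list, Fzd10 is at 100% in preadipocytes and adipocytes and at 0 in both knockdowns, and the 6 genes from Dkk1 to Rspo2 are at 0 in adipocytes.

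Of the 6 genes that left, none met a LAD in the single knockdown and 3, Wnt3, Dkk2 and Axin2, met one in the double knockdown. Of the 1076 protein-coding genes that left, 41.4% and 55.5% met one. Without LADs under 30 kb, none of these 3 met a LAD in the double knockdown. Set directly against adipocytes, the single knockdown list held 1 gene more, Fzd3, and lacked 1, Fzd10, where 6.13% of all genes entered and 1.95% left. That balance became 4 left and 0 entered with LADs of at least 100 kb only, and 4 left and 1 entered by start site. The double knockdown list held those 3 genes more and likewise lacked Fzd10, where 8.36% entered and 2.10% left. That direction turned with LADs of at least 100 kb only (3 left and 0 entered) and by start site (3 left and 1 entered). Shares of all genes were not computed for these alternative settings, so the turns cannot be read as particular to the Wnt genes. LADs were shorter in the knockdown lists, with medians of 59.1 and 60.7 kb against 103.1 kb in adipocytes. The 2 comparisons share the adipocyte list. Of the 5 genes in LADs of both preadipocytes and adipocytes, Fzd10 alone met none in either knockdown. Genome-wide 5.64% and 6.06% of 4789 such genes met none.

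Of the 19 ligands, Wnt2 and Wnt3 met a LAD in at least 1 list, where 36.3% of all genes did. Wnt2 encodes a ligand of the beta-catenin branch and lies on the minus strand at chr6:17938940-17980585. Of its 41.6 kb, 67.2% lay in a LAD in preadipocytes, 85.2% in adipocytes, 72.0% in the single knockdown and 95.1% in the double knockdown. The LADs differed in which end of the gene they held. In preadipocytes a single LAD of 29.9 kb covered the start site and stopped inside an intron, 28.0 kb into the gene. It is just under 30 kb and was dropped with that minimum, under which Wnt2 met a LAD in adipocytes and not in preadipocytes. In adipocytes the start site was in a LAD of 813.0 kb that ran in from upstream and ended 19.4 kb into the gene. A second LAD of 45.9 kb began 25.5 kb into the gene and covered its 3′ end. Closing gaps under 50 kb joins these LADs, and the adipocyte share was then 100.0%, above both knockdowns. In the knockdowns the 3′ part was in LADs of 57.3 and 52.9 kb, and the start site lay outside them by 11.7 kb and 2.04 kb. The recruited region of 43.4 kb, holding 32.8% of the gene at its 3′ end, lay to 94.5% in LADs of the single knockdown and to 62.2% in those of the double knockdown.

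Wnt3, a ligand needed to form the embryonic axis, lies at chr11:103635464-103679271 on the plus strand. A LAD of 24.8 kb held the last 22.1% of its body in preadipocytes, and 0 of it lay in LADs in adipocytes or in the single knockdown. In the double knockdown a LAD of 25.4 kb held 23.5%. The preadipocyte LAD ran from 103669578 to 103694341 and the double knockdown LAD from 103668985 to 103694346, so that the same stretch was called in both, with far borders 5 bp apart. The start site lay 34.1 kb from the nearest LAD in preadipocytes and 1037.7 kb in adipocytes, and 145.7 and 33.5 kb in the single and double knockdown. Wnt9b, its neighbour across a gap of 24.3 kb, met no LAD. Its start lay 58.4, 1062.0, 121.4 and 57.8 kb from the same LADs, so the same order follows from its place. The LAD at Wnt3 was under 30 kb in both lists and was dropped with that minimum.

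The other 17 ligand genes met no LAD in any list. Wnt10b, the ligand best known from preadipocytes, had its start 400.9 kb from the nearest LAD in preadipocytes, 426.4 kb in adipocytes, and 295.0 and 329.8 kb in the knockdowns. Wnt1 next to it lay at 412.6, 438.1, 306.7 and 341.5 kb from the same LADs. Wnt5a, a ligand of the branch without beta-catenin, was at 663.9 and 979.4 kb in preadipocytes and adipocytes and at 86.8 and 179.7 kb in the knockdowns. Wnt4 lay farther out than the other ligands in preadipocytes and adipocytes, at 4722.5 and 4727.8 kb, and at 1332.8 and 944.3 kb in the knockdowns. Wnt8a was beyond 1 Mb throughout, at 1472.0, 2275.9, 1523.9 and 1607.4 kb.

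Of the 10 receptor and 2 co-receptor genes, Fzd10 and Fzd3 met a LAD in at least 1 list, where 36.3% of all genes did. Fzd10, a Frizzled receptor, is a short gene of 3.25 kb at chr5:129106719-129109968. It lay wholly inside LADs of 585.5 kb in preadipocytes and 580.2 kb in adipocytes, which shared their upstream border, at -230.3 kb from the start site. That border is not at a GATC but at the edge of a stretch unread in the assembly. In both knockdowns the gene lay in a gap. In the single knockdown the gap ran from -6.38 kb to 9.61 kb relative to the start site, and in the double knockdown from -8.46 kb to 5.88 kb. The megabase around the gene stayed rich in LADs, with 87.1% in preadipocytes, 85.9% in adipocytes, 73.1% in the single knockdown and 69.1% in the double knockdown. With gaps under 50 kb closed, Fzd10 was 100.0% in LADs in both knockdowns, so this pattern rests on 1 small gap in each list.

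Fzd3, the receptor known from axon guidance and planar cell polarity, lies at chr14:65819863-65881300 on the minus strand and met a LAD in the single knockdown list alone. There 34.1% of its 61.4 kb lay in 2 LADs. The LAD of 19.6 kb ran from -5.40 kb to 14.2 kb relative to the start site. The other, of 37.9 kb, began 54.7 kb into the gene. The start site was 1253.6 and 1431.0 kb from the nearest LAD in preadipocytes and adipocytes, and 248.0 kb in the double knockdown. With LADs under 30 kb left out, the LAD at the start site was dropped and 10.9% of the body remained, and with LADs of at least 100 kb only it was 0. Closing gaps under 50 kb raised the share to 100.0%.

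**Figure D3:**
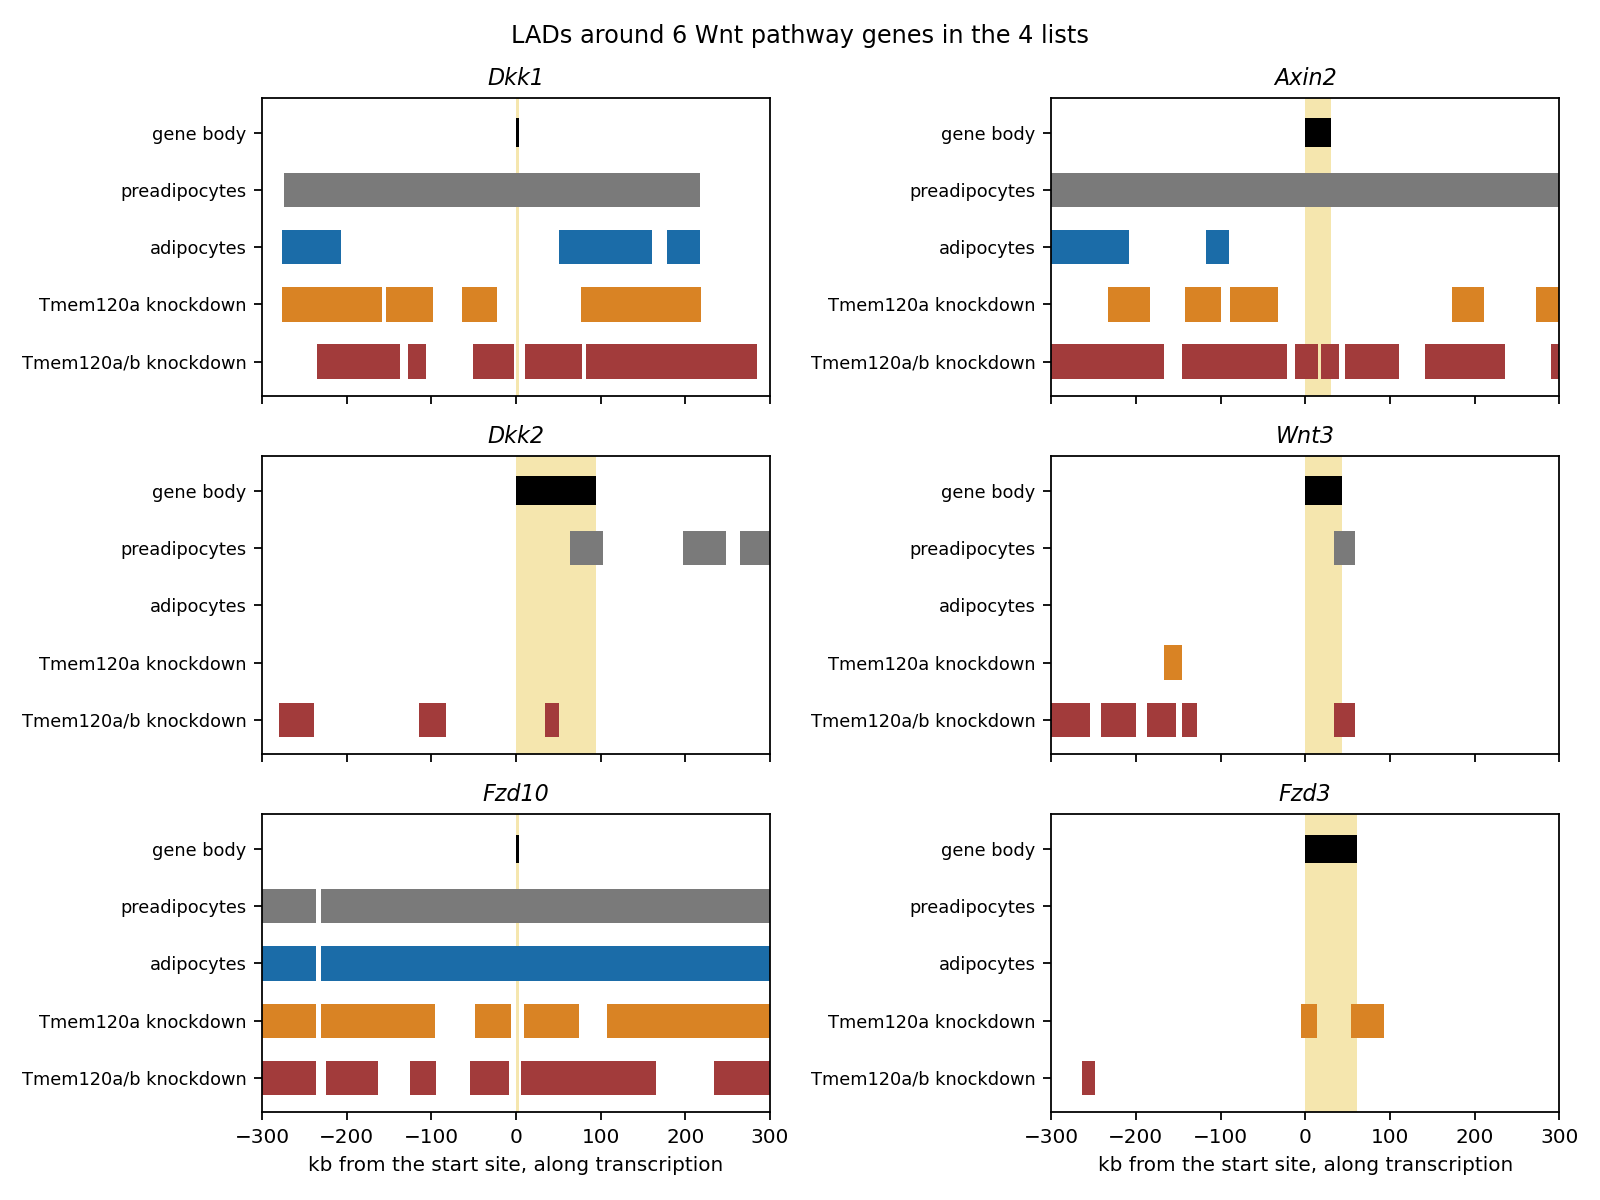
LADs (bars) in each of the 4 lists around Dkk1, Axin2, Dkk2, Wnt3, Fzd10 and Fzd3, with position in kb from the start site along the direction of transcription, and the gene body as a black bar and yellow band. Bars that reach 300 kb on either side may go on beyond the plot. Fzd10 lies in a small gap in both knockdowns, Axin2 is crossed by 2 LADs in the double knockdown, and the Dkk2 LAD of the double knockdown lies nearer the start site than that of preadipocytes.

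The other 8 Frizzled genes and both co-receptor genes met no LAD. Fzd8 was 38.7 kb from the nearest LAD in preadipocytes and 43.8 kb in the double knockdown, but 5492.1 kb in adipocytes and 2867.3 kb in the single knockdown. Fzd6 was nearer in each list in turn, at 379.8, 286.2, 147.6 and 60.4 kb. Fzd9 was about as far in all of them, at 1205.6, 1187.0, 1259.1 and 1253.4 kb. Lrp6 lay at 622.4, 622.5, 530.4 and 190.9 kb, and Lrp5 at 435.8, 455.7, 219.1 and 541.8 kb.

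Of the 5 secreted Frizzled-related genes, Sfrp1 and Frzb met LADs in every list, as did 19.3% of all genes. Sfrp1 (chr8:24521974-24560104, 38.1 kb) encodes a secreted Wnt-binding antagonist. It lay to 100.0% in a LAD of 224.6 kb in preadipocytes, to 72.9% in a LAD of 28.9 kb in adipocytes, to 76.6% in one of 29.2 kb in the single knockdown and to 100.0% in one of 65.4 kb in the double knockdown. The 2 middle values stand for different ends of the gene. The adipocyte LAD ran from -1.05 kb to 27.8 kb relative to the start site, and the single knockdown LAD from 7.93 kb to 37.1 kb. Both were dropped when LADs under 30 kb were left out. Frzb (chr2:80252127-80287782, minus strand), also called Sfrp3, varied least among the 12 genes that met a LAD, in the lists as deposited. Its body lay to 100.0%, 100.0%, 100.0% and 95.9% in LADs of 87.5, 109.9, 96.1 and 66.1 kb, and in the double knockdown the start site was 1.47 kb outside. With gaps under 50 kb closed, Rspo3 and Fzd10 varied less, at 100.0% in every list. With LADs of at least 100 kb only, Frzb was at 100.0% in adipocytes and 0 in the other lists. Sfrp4 met no LAD, but its start was 101.7 kb from one in preadipocytes and 33.3, 12.2 and 31.4 kb in the other lists. The megabase around Sfrp4 held 42.4% of LAD in preadipocytes, 78.1% in adipocytes, 32.8% in the single knockdown and 23.8% in the double knockdown. The difference of 35.7 points between adipocytes and preadipocytes was the highest of the 46 genes, and the differences of -45.4 and -54.3 points between the knockdowns and adipocytes were the lowest.

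Dkk1, which blocks Lrp5 and Lrp6, is a gene of 3.80 kb at chr19:30620353-30624155. In preadipocytes it lay inside a LAD of 490.3 kb. In adipocytes the same stretch was listed in pieces, with the gene in the space from -206.5 kb to 51.2 kb relative to its start. The start site was 51.2 kb from the nearest LAD in adipocytes, 22.2 kb in the single knockdown and 1.91 kb in the double knockdown, and 0 of the gene lay in a LAD in these 3 lists. The released region that holds it is 257.7 kb long (chr19:30572926-30830650), and 55.8% of it lay in LADs in the single knockdown and 70.0% in the double knockdown. The larger share of the region was thus in LADs of each knockdown list, and the gene itself was not. With gaps under 50 kb closed, Dkk1 was 100.0% in a LAD in the double knockdown.

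Dkk2, a related co-receptor ligand, spans 95.0 kb at chr3:131748256-131843257. Its last 33.3% lay in a LAD of 39.0 kb in preadipocytes, none of it in adipocytes or the single knockdown, and 17.4% in a LAD of 16.6 kb in the double knockdown. These were different stretches of the gene. The preadipocyte LAD began in an intron 63.4 kb after the start site and the double knockdown LAD ran from 34.5 to 51.0 kb after it. Of the released region (chr3:131811621-131850622) 0 lay in LADs in either knockdown, so that the return of Dkk2 to the LAD count in the double knockdown is not a return of the region that left. Dkk3 and Dkk4 met no LAD.

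Axin2, the scaffold of the complex that destroys beta-catenin and itself a classical target of the pathway, lies at chr11:108781663-108812097 on the plus strand. It had the largest difference in surroundings between preadipocytes and adipocytes among the 46 genes. The gene lay inside a LAD of 850.2 kb in preadipocytes. Its start was 89.4 kb from the nearest LAD in adipocytes, 32.1 kb in the single knockdown and inside a LAD in the double knockdown. There 85.7% of the body lay in LADs of 26.3 and 20.8 kb, whose facing borders stood 14.8 and 19.2 kb into the gene. The megabase around it held 85.0% of LAD in preadipocytes, 19.3% in adipocytes, 35.2% in the single knockdown and 65.7% in the double knockdown. Of the released region, 472.8 kb at chr11:108692290-109165066, 28.4% lay in LADs in the single knockdown and 65.2% in the double knockdown. The LADs over Axin2 itself in the double knockdown are both under 30 kb and were dropped with that minimum. Axin1 met no LAD.

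The borders that place the Dkk2, Axin2 and Wnt3 values of the double knockdown inside these genes are shown, with the preadipocyte borders inside Dkk2 and Rspo4, because they show where a call begins or ends. Each is a window of 60 bases on the plus strand of mm9, 5′ to 3′, with the GATC at the border in capitals. All lie in introns. The windows are chr3:131811591-131811650 (Dkk2, preadipocytes), chr3:131782695-131782754 and chr3:131799253-131799312 (Dkk2, double knockdown), chr11:108796439-108796498 and chr11:108800789-108800848 (Axin2, double knockdown), chr11:103668955-103669014 (Wnt3, double knockdown) and chr2:151674474-151674533 (Rspo4, preadipocytes).
Dkk2 preadipocyte start: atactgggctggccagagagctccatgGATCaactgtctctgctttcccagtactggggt
Dkk2 double knockdown start: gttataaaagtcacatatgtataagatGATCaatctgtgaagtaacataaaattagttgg
Dkk2 double knockdown end: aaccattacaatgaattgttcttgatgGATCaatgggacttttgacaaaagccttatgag
Axin2 double knockdown end: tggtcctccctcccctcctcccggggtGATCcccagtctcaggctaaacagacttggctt
Axin2 double knockdown start: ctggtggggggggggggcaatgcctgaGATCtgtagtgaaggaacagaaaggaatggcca
Wnt3 double knockdown start: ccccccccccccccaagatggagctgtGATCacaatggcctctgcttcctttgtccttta
Rspo4 preadipocyte end: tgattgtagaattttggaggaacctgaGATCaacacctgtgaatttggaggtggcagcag

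Among the R-spondins, ligands of the Lgr receptors, 3 of 4 met a LAD by any overlap in preadipocytes (26.2% of all genes did). In each other list 1 of 4 did, against 23.3%, 27.5% and 29.5% of all genes in adipocytes, the single and the double knockdown. With at least 50% of the body required, Rspo3 alone was counted. Rspo3 (chr10:29172915-29255673, minus strand) lay to 100.0% in LADs of 173.7 kb in preadipocytes, 495.9 kb in adipocytes and 174.5 kb in the double knockdown. In the single knockdown a LAD of 47.0 kb held 56.8%, and the start site was 14.4 kb outside. With gaps under 50 kb closed the value there was 100.0%. Rspo4 (chr2:151668663-151700404) had its start and 18.4% of its body in a LAD of 52.6 kb in preadipocytes, which ended in an intron 5.84 kb after the start. Its start was 38.4 kb from the nearest LAD in adipocytes, 19.9 kb in the single knockdown and 79.7 kb in the double knockdown. Of its released region 41.8% lay in LADs in the single knockdown and 0 in the double knockdown, the reverse order of Axin2 and Dkk1. Rspo2 (chr15:42852357-43002364, minus strand) met a LAD with the last 5.81% of its 150.0 kb in preadipocytes alone, and 0 of its released region of 42.7 kb lay in LADs in either knockdown. Rspo1 met no LAD.

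The start sites gave a view of the knockdowns that the body counts hid. Wnt2, Fzd10, Sfrp1, Frzb and Rspo3, 5 genes, had their start in LADs of both preadipocytes and adipocytes. In the single knockdown 4 of these 5 starts lay outside LADs and Frzb alone kept its place. Genome-wide 7.96% of 4336 such starts lay outside. In the double knockdown 3 of 5, Wnt2, Fzd10 and Frzb, lay outside, against 8.88%. The distances were small, between 6.38 and 14.4 kb in the single knockdown and between 1.47 and 5.88 kb in the double knockdown. The medians were 9.80 and 2.04 kb, and those of all genes with such starts outside were 12.7 and 11.6 kb. With gaps under 50 kb closed, Fzd10 and Rspo3 were back in LADs in the single knockdown and Fzd10 in the double knockdown, while Wnt2 and Sfrp1 in the first and Wnt2 and Frzb in the second stayed outside. When a LAD within 10 kb of the start was accepted, all 5 counted as in LADs in the double knockdown, and Fzd10, Sfrp1 and Frzb in the single knockdown. This count of starts was taken after the values had been seen. Of the 3 starts that had left in adipocytes, none lay in a LAD in the single knockdown and Axin2 did in the double knockdown, against 32.0% and 44.7% of 882 such starts. In all, 9 of 46 start sites (19.6%) changed state between lists, against 13.6% of all genes.

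Distance to the nearest LAD covers the genes that met none. The median distance of the 46 starts was 406.8 kb in preadipocytes and 599.0 kb in adipocytes, and in the single and double knockdown it was 300.4 and 213.1 kb. The order depended on short LADs. With LADs of at least 100 kb only, the median was 626.4 kb in preadipocytes and 928.4 kb in adipocytes. It was 1021.1 kb in the single and 866.3 kb in the double knockdown. Both knockdowns were then farther than preadipocytes, and the single knockdown was also farther than adipocytes. For all protein-coding genes, with LADs of any length, the medians were 186.9, 301.3, 132.6 and 108.5 kb, in the same order as for the 46 starts. The Wnt genes lay farther out in every list. Of the 37 genes whose start was outside LADs in all lists, 32 were nearer to a LAD in the single knockdown than in adipocytes and 32 in the double knockdown. Genome-wide 11804 and 12787 of 15574 such genes were nearer. From preadipocytes to adipocytes 21 of the 37 were farther and 16 nearer, where 10979 were farther and 4541 nearer among all genes. The 2 knockdown lists also hold the most LADs, and the part this has in the distances was not tested.

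**Figure D4:**
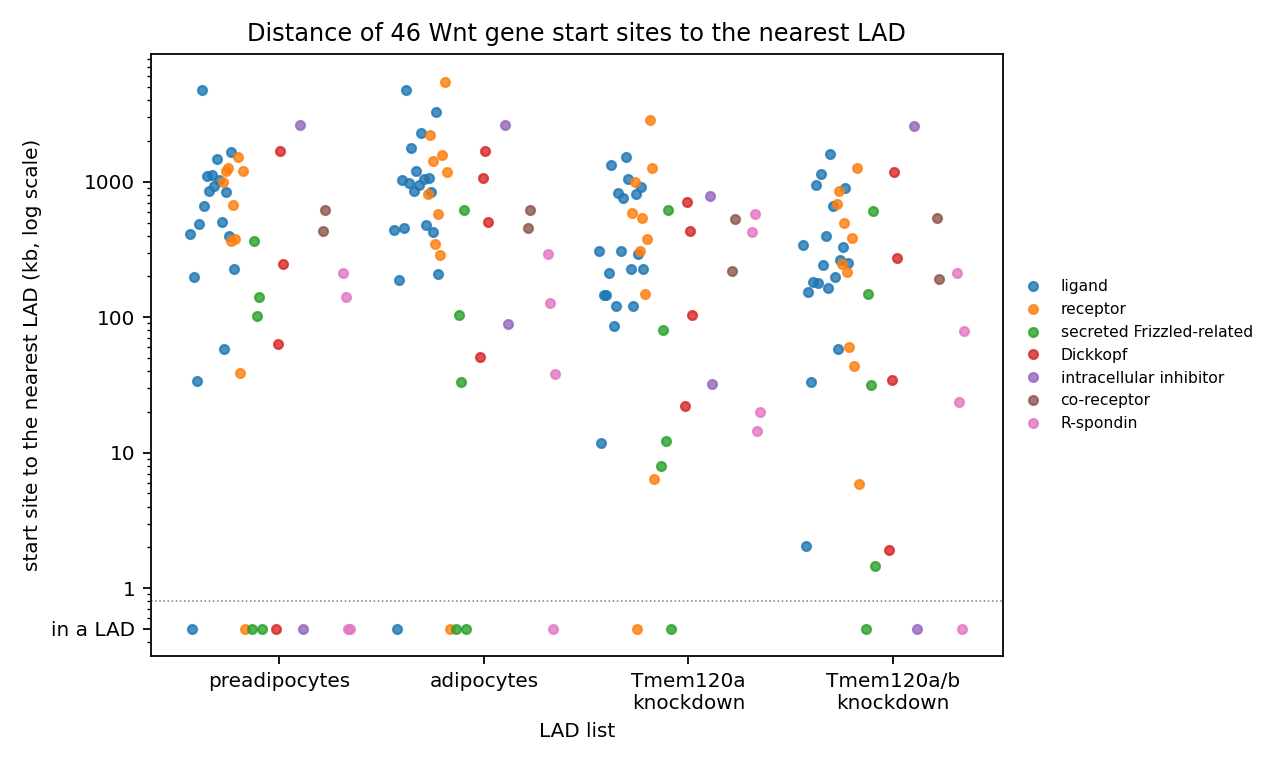
Distance in kb, on a log scale, from the start site to the nearest LAD for each of the 46 Wnt genes (points, coloured by role) in the 4 lists. Points on the lowest line are start sites inside a LAD, 8, 5, 2 and 3 in turn. In the knockdowns several points lie just outside, between 1.47 and 14.4 kb, where preadipocytes have none under 34.1 kb and adipocytes none under 33.3 kb.

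The genes that met a LAD differed in median length and GC content from those that met none. Their median length was 39.9 kb against 15.2 kb for the 34 that met none, and 15.4 kb for all genes. The GC content of the 100 kb around the start had a median of 41.8% against 47.2%, with 46.9% over the 46 genes and 44.2% over all. Counting any overlap favours longer genes by construction, and the same split was not made for all protein-coding genes. Single genes went against both medians. Fzd10 and Dkk1 were 3.25 and 3.80 kb long, and in GC content Wnt3 stood at 51.4%, Axin2 at 49.5%, Fzd10 at 48.8% and Rspo4 at 48.2%, above the median of the genes that met none.

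Other genes of the pathway were followed in a list of 59 (57 found in the annotation), from the transducers and transcription factors to the Lgr receptors. The number meeting a LAD was 6, 3, 6 and 8 of 57 in the 4 lists (10.5%, 5.26%, 10.5% and 14.0%), below the genome-wide shares given above. Ctnnb1, Gsk3b, Apc and the 3 Dvl genes met none. Lef1, the factor that acts with beta-catenin, met a LAD in the double knockdown alone, with 30.3% of its body. Nkd1, an inhibitor of Dvl, had 36.3% in preadipocytes, 0 in adipocytes and the single knockdown and 30.6% in the double knockdown. It met a LAD in the same lists as Wnt3, Dkk2 and Axin2. Prickle1, of the polarity branch, had 81.0% in preadipocytes and 0 in the other lists, as did Dkk1, Rspo2 and Rspo4 with their own shares. Sostdc1, a secreted antagonist, had 100.0% in preadipocytes and the single knockdown and 0 in the other lists. Ror2, a Wnt5a receptor, had 50.8% and 42.9% in the knockdowns and 0 before. Prickle2 had 1.07% and 10.2% there and 0 before, and Tnks had 3.32% in the double knockdown alone. From preadipocytes to adipocytes 3 of 57 left (5.26%, against 4.81% of all genes). From adipocytes 3 entered in the single and 5 in the double knockdown. These are 5.26% and 8.77%, against 6.13% and 8.36% of all genes. Wif1, which binds Wnts, had 56.3%, 100.0%, 58.1% and 100.0%, and Lgr5, an R-spondin receptor, had 100.0%, 86.9%, 100.0% and 100.0%.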

How the data were processed

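LaminB1-DamID was compared in 4 conditions of 3T3-L1 cells, with 1 LaminB1-Dam and 1 Dam library each. The authors mapped reads to mm9 (the submitters' processing notes name BWA and limma, versions not given), computed log2(LaminB1-Dam/Dam) per DpnI fragment, and segmented these values into LADs with DNAcopy. The deposited lists hold positions in bp only, 1 list of LADs per condition and 2 lists of differential regions, with no score. The rule for the differential regions is not stated in full in the sources used here. Lists were assigned to conditions by the abbreviation they carry. The shortest LAD was 15.0 kb and the shortest region 8.04 kb.

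Gene positions came from the GENCODE vM1 annotation of NCBIM37 (22367 protein-coding genes on 21 chromosomes). LAD borders fell at a GATC of that sequence for between 96.5% and 98.8% of borders, which checks the build. Printed positions are 1-based, the lists being read as 0-based. Overlaps were computed by bp in Python 3.11.15 with numpy 2.4.6, and plots drawn with matplotlib 3.10.9. The interval code was tested on simulated data. Any overlap of the gene body counted as meeting a LAD. No test was run.

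The members and lists were chosen with earlier results of these data known. Genes named with values were those meeting a LAD or differential region, those within 50 kb of one, the 3 farthest, and neighbours or pathway genes set beside them. Of the genes that met none, Wnt10b, Wnt1, Wnt9b, Wnt5a, Lrp5 and Lrp6 were named for their role or place, and other pathway genes after their values were seen. Alternatives were a minimum LAD length of 30 or 100 kb, gaps under 50 kb closed, at least 50% of the body, the start site in place of the body, a LAD within 10 kb of the start, the longest protein-coding transcript in place of the gene span, the start of any protein-coding transcript, distance from the nearest end of the body, and all pieces of the subtraction of the preadipocyte and adipocyte lists in place of the deposited regions (8 genes in released pieces, 1 in recruited ones). An alternative was read as different where it moved a count by more than 1.5 times.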

Additional observations from a re-analysis of the deposited data

Results flagged for a closer look

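Wnt2 stood out because its value moved opposite ways in the 2 knockdowns. Of its body 85.2% lay in LADs in adipocytes, 72.0% in the single knockdown and 95.1% in the double knockdown, a gap of 23.1 percentage points between the knockdowns. The opposite order rests on 1 gap between LADs inside the gene in adipocytes. With gaps under 50 kb closed the adipocyte value was 100.0%, above both knockdowns, and with LADs of at least 100 kb only the values were 46.5%, 0 and 0. The difference was not tested, since each value comes from 1 list.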

How the results depend on the processing

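Of 84 alternative counts of these genes, 50 stayed within 1.5 times the reported count and 34 did not. Of 192 alternative body shares of the named genes, 160 stayed and 32 moved, and of 12 alternative median distances 6 stayed and 6 moved. The cause was not tested except where an alternative by its construction keeps fewer LADs. Shares of all genes were not computed for these alternatives, apart from start sites leaving from preadipocytes to adipocytes. Whether the changes below are particular to the Wnt genes was not tested.

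With LADs of at least 30 kb only, the body count in the double knockdown was 4, the start count in the single knockdown 1, and 1 gene (Wnt2) entered from preadipocytes to adipocytes, while 1 entered from adipocytes to the double knockdown. Keeping only LADs of 100 kb or more, the body counts were 5 in preadipocytes, 0 in the single knockdown and 1 in the double knockdown, and the start counts 5, 0 and 1. Then 3 genes left and 2 entered from preadipocytes to adipocytes, 4 left and 0 entered from adipocytes to the single knockdown, and 3 left and 0 entered to the double knockdown. That turns the direction between adipocytes and the double knockdown, where 1 left and 3 entered as reported, and the body count went from 4 to 1 in place of 5 to 7. The median start distance in the single knockdown turned from nearer than in adipocytes to farther (1021.1 against 928.4 kb). In both knockdowns it turned from nearer than in preadipocytes to farther (1021.1 and 866.3 against 626.4 kb). With gaps under 50 kb closed, the start counts were 4 and 5 in the knockdowns, and 0 genes left from adipocytes to either. With a LAD allowed within 10 kb of the start, the start counts were 4 and 7, so that the count in the double knockdown was above the 5 of adipocytes in place of below it. With at least 50% of the body required, 7 genes were in LADs in preadipocytes, 2 left from preadipocytes to adipocytes, 0 entered to the single knockdown and 1 to the double knockdown, 2 met a released region and 0 a recruited one. With the start site in place of the body, 3 left from preadipocytes to adipocytes, 4 left to the single knockdown, 3 left and 1 entered to the double knockdown, which again turns that direction, 3 met a released region and 0 a recruited one.

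The lists hold no depth or signal, so a LAD just under the calling limit cannot be told from no signal. Short gaps and LADs under 30 kb carry the knockdown values of Fzd10, Fzd3, Axin2, Dkk2 and Wnt3. They also carry the single knockdown values of Sfrp1 and Rspo3 and the double knockdown value of Dkk1. No paired analysis was possible because each condition has 1 list.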

Other observations

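The released regions that hold these genes also hold neighbours. With Axin2 lie Ccdc46, E030025P04Rik and Rgs9. Of the body of Rgs9, a regulator of G protein signalling, 100.0% lay in LADs in preadipocytes, 0 in adipocytes, 9.36% in the single knockdown and 30.1% in the double knockdown. For E030025P04Rik the values were 100.0%, 0, 0 and 100.0%, and for Ccdc46 93.5%, 44.4%, 56.6% and 86.9%. With Wnt3 lies Nsf, a fusion ATPase of membrane traffic, at 8.50%, 0, 0 and 8.51%. With Dkk1 lies Prkg1, the cGMP-dependent protein kinase, at 32.7%, 25.5%, 22.3% and 19.4%. Dkk2, Rspo2, Rspo4 and Wnt2 were the only protein-coding genes in their regions.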
